A study of Mus musculus with 41 samples.

Results

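Microglia from the cerebellum of 9-week-old mice with Niemann-Pick type C disease (NPC) that formed the control group of a drug experiment were compared with microglia from wild-type (WT) mice of the same age. The comparison holds 9 of the 41 libraries of the series, chosen by their labels: 5 control-arm NPC libraries, numbered 1 to 5, and 4 WT libraries, lettered A to D. The drug experiment had PLX5622, an inhibitor of the kinase Csf1r, in its other group, and it was run apart from the time course that supplied the WT mice. The arms are therefore separate experiments, the drug arm has no WT group, and a difference between control-arm NPC and WT mice cannot be told apart from a difference between the arms. A second set of mutants, 3 NPC libraries of the time course lettered A to C, was used to ask which differences repeat, and both sets were compared with the same 4 WT libraries.

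WT mice carried the strain label BALB/c, and both sets of NPC mice the strain label BALB/cNctr-Npc1m1N/J, a BALB/c line with a spontaneous mutation of Npc1 in every cell. The labels give the treatment as none for WT and time-course NPC mice, called untreated here, and as control for the control arm. They do not say what the control mice received, and they give no sex. In all 3 groups cells positive for both CD11b and Tmem119 were sorted from the cerebellum, about 20000 per sample. The gate thus selects against other cells and against microglia that had lost either protein. Transcripts that mark other cell types were still counted in these libraries, as described below. RNA was amplified with SMART-seq v4 chemistry in 12 cycles and read as 150 base pairs. Replicates are mice, per the labels, and p-values measure the spread between these libraries. In sorted bulk samples, fewer cells of a type and less RNA per cell cannot be told apart.

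Npc1 is a membrane protein that moves cholesterol out of the lysosome, and without it cholesterol and sphingolipids collect there. Microglia are the resident macrophages of the brain. In a healthy brain they carry a homeostatic signature of receptors such as P2ry12, Cx3cr1 and Tmem119. Around damaged or lipid-laden cells they can exchange it for a disease-associated signature of phagocytic, lysosomal and lipid-handling genes such as Apoe, Axl and Cst7. The cerebellum loses its Purkinje neurons in NPC, and this mouse line is near the end of its disease course at the age sampled.

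Library depth was 32.45 to 35.08 M reads in the control arm, 27.07 to 34.42 M in WT and 27.99 to 32.06 M in untreated NPC. Between 13035 and 14013 genes had at least 3 reads. The top 10 genes by abundance held 14.17 to 15.81% of each WT library and 18.02 to 19.83% of each NPC library. Values below are normalized counts, which are read counts per gene divided by 1 factor per library. They compare a gene between libraries and not genes with each other. A log2 change is a difference between group means of log2(normalized count + 1), and a fold is the same difference on the linear scale. It passed the threshold where limma's Benjamini-Hochberg adjusted p was below 0.05, in 1 fit of the 12 libraries over 13064 genes.

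Libraries of the control arm differed from each other in ways that the labels do not explain. Control-arm replicates 1 and 5 held 60.3 and 97.7 normalized counts summed over the Y-linked genes Ddx3y, Kdm5d, Eif2s3y and Uty, against 3737 to 5152 in the other 10 libraries. Their Xist, the RNA that silences an X chromosome in females, was at 653 and 757, against 4.7 to 36.7 elsewhere. These 2 libraries therefore carry a female pattern and all 4 WT libraries a male one. Fos, an immediate early gene that cells also raise during tissue dissociation, was at 12070 and 11807 in control-arm replicates 1 and 2 and at 3284 in untreated replicate C, and at 52 to 340 in the other 9 libraries. Counts below are also given without these libraries where that moves them by over 1.5 times.

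**Figure D1:**
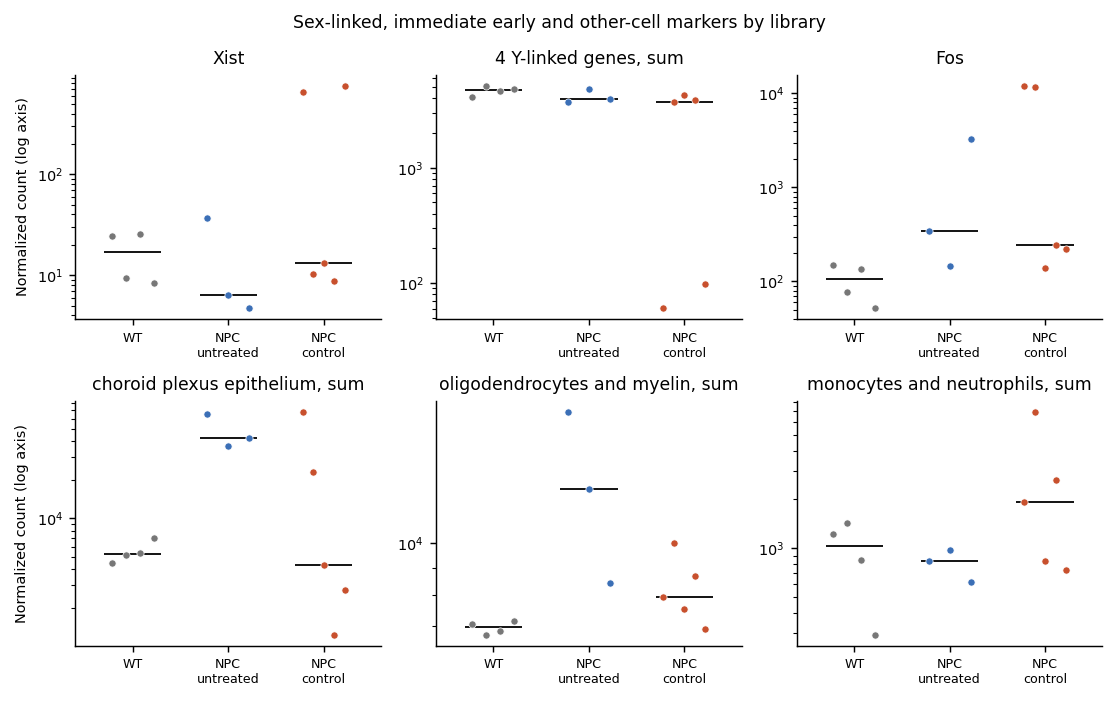
Normalized counts by library (log axis) of Xist, of 4 Y-linked genes summed, of Fos, and of marker lists of 3 other cell types summed, with 1 point per library, in replicate order, and a line at the group median. Control-arm replicates 1 and 5 stand apart in the first 2 panels and replicates 1 and 2 in the third, and the choroid plexus sum of the 5 control-arm libraries runs from 1233.7 to 67608.5.

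Npc1 itself separated the genotypes in every library. It was at 4888, 5166, 6767 and 6410 normalized counts in WT A to D, and at 524, 787, 663, 668 and 493 in control-arm replicates 1 to 5. Untreated NPC libraries held 785, 430 and 672. Control-arm Npc1 thus fell by 3.22 on the log2 scale (SE 0.18, adjusted p = 3.48e-09), and the 2 mutant sets overlapped each other and not WT.

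Many genes differed between control-arm NPC and WT microglia. Of 13064 genes tested 4696, or 35.9%, passed the threshold, 2387 higher (18.3%) and 2309 lower (17.7%). Among them 840 were at least 2-fold higher and 636 at least 2-fold lower. The libraries of the groups did not overlap for 3668 of the genes that passed, and for 29.9% of all genes tested. With every library rescaled to the same total, 1915 genes were higher and 2910 lower, and the median log2 change of all genes was -0.102 in place of -0.009. The gene lists below are read against this background. Some genes belong to several lists, so the lists are not separate sets of genes. Ctsb and Cd63 are in the disease-associated and lysosome lists, and Apoe and Fabp5 in the disease-associated and lipid storage lists. P2ry12 and Cx3cr1 are in the homeostatic and chemokine receptor lists, for example. Without control-arm replicates 1 and 5 the count of genes past the threshold was 4129, without replicates 1 and 2 it was 4407, and without all of these it was 3551.

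The genes named by the size of their rise include enzymes of the matrix and of glycans. Lox, an enzyme that cross-links collagen and elastin, was at 54, 66, 46 and 37 normalized counts in WT and at 2469, 2432, 2185, 2053 and 2494 in the control arm. This is a 45.9-fold rise (log2 change 5.52 ± 0.16 SE, adjusted p = 1.06e-11), with the lowest control-arm library far above the highest WT library. Hpse, the heparanase that cuts heparan sulfate chains, held 132, 163, 89 and 68 in WT against 3248, 5971, 4559, 5249 and 3816 (41.4-fold, adjusted p = 4.46e-10). Chst2, a sulfotransferase that modifies glycans, held 252, 172, 136 and 125 against 6752, 4114, 4625, 6191 and 6445 (33.3-fold, adjusted p = 3.15e-10). Gpc4, a heparan sulfate proteoglycan of the cell surface, rose from 6 to 15 normalized counts in WT to 274 to 577. In each of these genes the lowest control-arm library lay above the highest WT library.

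The other genes of this set have roles in immunity or adhesion, or are less studied. C2, the complement protease of the classical pathway, held 51, 29, 30 and 18 normalized counts in WT and 1964, 1488, 1102, 832 and 758 in the control arm (37.4-fold, adjusted p = 5.57e-09). Madcam1, an adhesion molecule for lymphocytes, held 4 to 13 in WT and 185 to 376. Serpinb1c, a serine protease inhibitor, held 2 to 21 in WT and 456 to 778. Cxcl2, a chemokine for neutrophils, was near its detection limit in WT, at 1, 2, 3 and 0, and at 308, 149, 27, 96 and 81 in the control arm (adjusted p = 8.25e-06). Plet1, a surface protein of epithelial and immune progenitor cells, was at 13, 17, 3 and 2 in WT and at 3311, 354, 454, 527 and 465, with replicate 1 far above the other 4 control-arm libraries. Plet1os, its antisense partner, rose too (3 to 17 against 140 to 323), and reads of the 2 genes cannot be told apart by strand in these counts.

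The genes named by the size of their fall include receptors, enzymes and secreted proteins. Gpr165, an orphan receptor, held 9061, 8733, 12478 and 10100 normalized counts in WT and 278, 442, 877, 683 and 1202 in the control arm, so no library came close to the other group (log2 change -4.02 ± 0.34 SE, adjusted p = 2.07e-06). Serpinf1, a secreted protein also known as pigment epithelium-derived factor, fell from 9400, 7629, 9757 and 12830 to 515, 849, 765, 673 and 841 (13.6-fold lower, adjusted p = 3.5e-10). Adra2a, an adrenergic receptor, fell from 334 to 602 normalized counts to 19 to 38. Sema6d, a semaphorin, fell from 738 to 1322 to 5 to 173, its lowest value in replicate 1. Gp9, a subunit of a platelet adhesion receptor, fell from 563 to 763 to 38 to 76, and Apobec2 of the cytidine deaminase family from 140 to 248 to 5 to 31. Hs3st2, a heparan sulfate sulfotransferase, was at 98 to 199 in WT and at 1 to 6 in the control arm. Wisp1, a matricellular protein, was at 122 to 208 against 0 to 9, Slc2a10, a glucose transporter, at 61 to 155 against 1 to 9, and Galnt16, a glycosyltransferase, at 85 to 136 against 0 to 10.

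**Figure D2:**
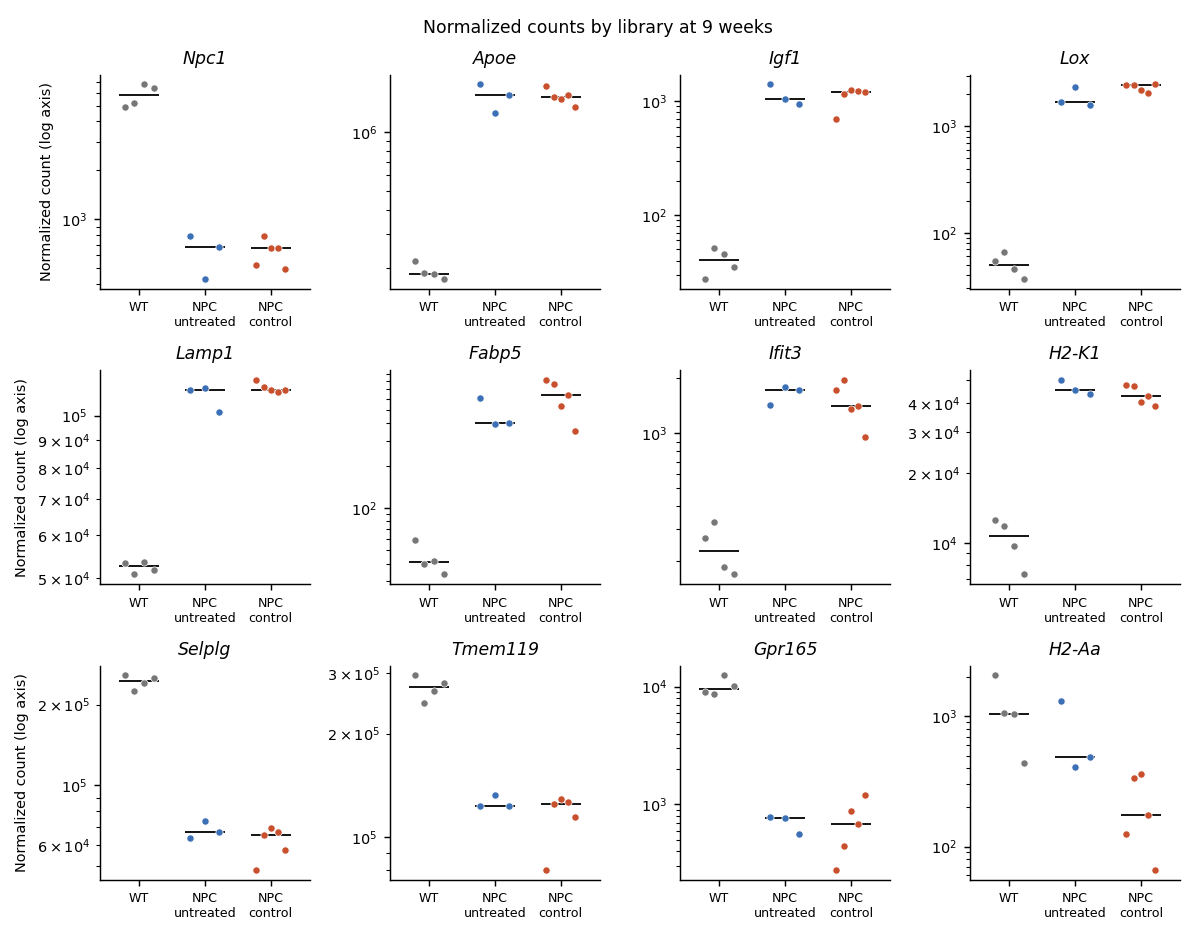
Normalized counts by library (log axes, not starting at 0) of 12 genes in WT, untreated NPC and control-arm NPC mice at 9 weeks, with 1 point per library and a line at the group median. For every gene but H2-Aa both NPC sets lie apart from WT and overlap each other, while H2-Aa of untreated libraries (410 to 1324) overlaps WT (442 to 2068).

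Homeostatic microglial genes fell together. Of 24 tested, 0 were higher and 19 lower, or 79.2% against 17.7% of all genes, with a median log2 change of -0.75. Tmem119, a surface protein used in the sort, held 295776, 246424, 265914 and 280400 normalized counts in WT and 80186, 124931, 128890, 126433 and 114203 in the control arm (2.4-fold lower, adjusted p = 1.04e-06). Itgam, which encodes the sorted CD11b, fell 1.58-fold (adjusted p = 0.00153). Selplg, a ligand of selectins, held 257302, 224503, 241014 and 250558 in WT against 48317, 65474, 69421, 67064 and 57143 (3.99-fold lower, adjusted p = 1.22e-09). The purine receptor P2ry12 fell 2.06-fold, the fractalkine receptor Cx3cr1 2.23-fold, the ectonucleotidase Entpd1 1.74-fold and the growth factor receptor Csf1r 1.22-fold. The 5 genes that did not pass were Fcrls, Mertk, Tgfbr1, Ltc4s and Crybb1, with log2 changes between -0.25 and 0.34. Leaving out WT replicate A, control-arm replicate 1 or control-arm 1 and 5 gave 1 higher gene in place of 0.

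Disease-associated genes moved the other way. Of 40 tested, 37 were higher and 1 lower (95% against 35.9% of all genes), with a median log2 change of 1.81 beside -0.009 for all genes. Apoe, the lipid carrier of the brain, held 217781, 188487, 185863 and 176057 normalized counts in WT and 1735520, 1525316, 1488200, 1556495 and 1347684 in the control arm, a 7.97-fold rise (log2 change 2.99 ± 0.1 SE, adjusted p = 4.69e-11). Igf1, a growth factor, rose from 28, 51, 46 and 35 to 705, 1151, 1264, 1228 and 1200, with replicate 1 the lowest of the control arm (27.3-fold, adjusted p = 3.64e-10). The cystatin Cst7 rose 18.6-fold and the receptor kinase Axl, which recognises dying cells, 8.97-fold. Csf1, a ligand of Csf1r, rose from 481 to 527 in WT to 3220 to 3977, 6.8-fold higher, while its receptor fell. The lysozyme Lyz2 rose 6.2-fold and the tetraspanin Cd63 4.98-fold. Cd34, a sialomucin, was the 1 gene that fell (1.81-fold, adjusted p = 1.69e-05). Trem2, the receptor upstream of much of this signature, did not pass (log2 change 0.01), nor did the chemokine Ccl6 (0.09).

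Lysosomal genes were mostly higher. Of 49 tested, 31 were higher and 6 lower, with a median log2 change of 0.42 and 75.5% past the threshold against 35.9% of all genes. Lamp1, a main glycoprotein of the lysosomal membrane, held 53373, 50752, 53585 and 51664 normalized counts in WT and 116569, 113269, 111361, 110791 and 111821 in the control arm (2.15-fold, adjusted p = 5.8e-09). The protease Ctsb rose 3.14-fold (adjusted p = 5.82e-09), and Atp6v1a, part of the vacuolar ATPase that pumps protons into lysosomes, from 2369 to 2896 in WT to 7547 to 10493 (3.23-fold, adjusted p = 1.11e-08). Gla, the alpha-galactosidase, had a log2 change of 2.25, the protease Ctsd 0.78 and the carboxypeptidase Ctsa 0.65. Tfeb, Tfe3 and Mitf, the transcription factors of lysosomal genes, did not pass (log2 changes -0.30, -0.17 and 0.15). In the fit of all 41 libraries 3 genes were lower in place of 6.

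TFEB and its relatives bind a palindrome, TCACGTGA, in the promoters of many lysosomal genes (the CLEAR element). RefSeq promoter windows (build GRCm38.p6) were available for 26 of the 35 lysosomal genes that passed in the same direction in both NPC sets. In the 250 bases before the start, 4 of these 26 (15.4%) held this exact palindrome, which reads alike on both strands, as did 1 of 12 other tested lysosomal genes with a window (8.33%), 0.785% of all 32851 windows and 1.75% of the tested genes with a window. The 4 stretches of 60 bases are shown because they place the element in genes that rose, and capitals mark it:
Atp6v1a (chr16:44139358-44139417, minus strand): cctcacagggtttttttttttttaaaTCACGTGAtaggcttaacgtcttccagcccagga
Gla (chrX:134601167-134601226, minus strand): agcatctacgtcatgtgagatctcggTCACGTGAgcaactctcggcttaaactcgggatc
Ctsd (chr7:142387893-142387952, minus strand): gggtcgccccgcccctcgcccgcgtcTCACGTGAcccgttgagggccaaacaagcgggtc
Ctsa (chr2:164833713-164833772, plus strand): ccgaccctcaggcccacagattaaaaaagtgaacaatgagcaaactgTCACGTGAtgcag
Each stretch lies before the annotated start of its gene and reads 5′ to 3′ on the strand of the gene. Relative to the annotated start, the element began at -132 in Atp6v1a, -195 in Gla, -99 in Ctsd and -13 in Ctsa, and Gla held another at -228. A match of letters is a description and not a measured binding site.

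Sterol genes rose in part. Cells make cholesterol through the mevalonate pathway, which the factor Srebf2 switches on when sterol in the endoplasmic reticulum is low. Of 25 genes of sterol synthesis and uptake 11 were higher and 2 lower (52% against 35.9% of all genes), with a median log2 change of 0.47. Srebf2 itself held 1276, 1117, 1283 and 1149 normalized counts in WT and 2769, 3294, 1841, 1932 and 1977 in the control arm (1.91-fold, adjusted p = 0.000407), highest in replicates 1 and 2. Dhcr7, which makes the last step to cholesterol, rose 1.56-fold and Lss, the lanosterol synthase, 1.71-fold. The sterol isomerase Ebp fell 1.42-fold and the reductase Tm7sf2 1.46-fold (adjusted p = 0.038). Without control-arm replicates 1, 2 and 5 the count of higher genes was 7. The call of Tm7sf2 was lost without any 1 of WT A, B or C or control-arm 1, 3 or 5, with adjusted p-values over all alternatives that lost it between 0.0549 and 0.209, which left 1 lower gene.

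Genes of lipid export and storage include many targets of the oxysterol receptor LXR. Of 23 tested 13 were higher and 1 lower (60.9% against 35.9% of all genes), with a median log2 change of 0.83. Fabp5, a fatty acid carrier, held 59, 40, 42 and 33 normalized counts in WT and 818, 767, 529, 641 and 355 in the control arm (13.7-fold, adjusted p = 2.29e-08). Plin3, a coat protein of lipid droplets, rose 2.98-fold. Apoc2, a lipoprotein cofactor, had the highest log2 change of the list, 4.36. Lpcat3, a phospholipid-remodelling enzyme and LXR target, fell 1.57-fold. The cholesterol exporter Abca1 had a log2 change of 0.52 and passed, whereas Abcg1 did not (-0.16).

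Interferon response genes rose at 33 of 40 and fell at 1, or 85% against 35.9% of all genes, with a median log2 change of 1.59. Ifit2 and Ifit3 bind foreign RNA, and Cxcl10 attracts T cells. Ifit3 held 270, 327, 188 and 170 normalized counts in WT and 1711, 1956, 1355, 1404 and 954 in the control arm (6.21-fold, adjusted p = 2.24e-07). Cxcl10 held 121, 114, 82 and 37 against 884, 828, 684, 667 and 688 (9.16-fold, adjusted p = 3.5e-07), and Ifit2 rose 7.9-fold. The lowest control-arm library lay above the highest WT library in all 3. Rsad2, an antiviral enzyme, had the highest log2 change of the list, 3.46. Gbp3, a guanylate-binding protein, was the 1 gene that fell (1.4-fold, adjusted p = 0.0133, and 0.0853 in the fit of all 41 libraries). Irf1 and Ddx58 were among the 6 genes that did not pass, with log2 changes of -0.08 and 0.31.

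Interferon signals act through the interferon-stimulated response element, searched here on both strands as GAAA, any 2 bases, and GAAA again, where matches may overlap. Promoter windows were available for 23 of the 33 interferon genes that passed in both NPC sets, and 12 of these 23 (52.2%) held the element in the 250 bases before the start, as did 2 of 6 other tested genes of the list (33.3%), 2.98% of all windows and 3.19% of the tested genes with a window. The stretches below belong to the 4 matching genes with the smallest adjusted p against WT and show that copies can lie in tandem, with capitals on each whole match:
Ifit3 (chr19:34583382-34583441, plus strand): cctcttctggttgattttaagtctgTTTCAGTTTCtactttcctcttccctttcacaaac
Cxcl10 (chr5:92349068-92349127, minus strand): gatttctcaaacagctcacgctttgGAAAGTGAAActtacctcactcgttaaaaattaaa
Bst2 (chr8:71537562-71537621, minus strand): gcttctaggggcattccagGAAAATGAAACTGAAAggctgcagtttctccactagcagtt
Ifit1 (chr19:34640779-34640838, plus strand): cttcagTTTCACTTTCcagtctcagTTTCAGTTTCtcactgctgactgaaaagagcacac
All read 5′ to 3′ on the strand of the gene, in build GRCm38.p6. In Ifit3 and Ifit1 the element lies in the reverse orientation and reads TTTC, 2 bases, TTTC. Bst2, which tethers budding viruses, carried 2 overlapping copies in its 16 bases of capitals and had a log2 change of 1.17, and Ifit1 had one of 2.64. Again the letters are a description, with no binding measured.

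Antigen presentation genes moved in both directions. Of 19 tested 8 were higher and 6 lower (73.7% against 35.9% of all genes), with a median log2 change of 0.12. The higher genes included class I molecules, which show peptides from inside the cell, and 5 of the 6 lower genes belong to the class II pathway for peptides taken up from outside. H2-K1, a class I heavy chain, held 12482, 11762, 9698 and 7305 normalized counts in WT and 47658, 47172, 40284, 42657 and 38740 in the control arm (4.27-fold, adjusted p = 1.11e-08). Its light chain B2m rose 2.31-fold and H2-Q4 4.73-fold. H2-K2, which shares sequence with H2-K1, rose 4.99-fold and is uncertain, since reads may be split between such copies. The class II chains H2-Aa and H2-Eb1, their activator Ciita and the peptide loaders H2-DMa and H2-DMb1 fell, as did the transporter subunit Tap2 (1.33-fold). H2-Eb1 held 1113, 597, 511 and 283 in WT and 85, 182, 188, 65 and 43 (adjusted p = 0.00146). H2-Aa held 2068, 1055, 1035 and 442 against 125, 336, 361, 176 and 66 (adjusted p = 0.00543), and without control-arm replicates 1, 2 and 5 its adjusted p was 0.0863. Both genes had a wide spread within WT, with A highest and D lowest. Their adjusted p was 0.057 for H2-Eb1 and 0.0503 for H2-Aa in the fit of all 41 libraries. Other class II genes did not pass, with log2 changes of -0.59 for H2-Ab1 and 0.12 for Cd74.

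Class II genes are also strong in blood-derived cells and border macrophages, so markers of these are set beside them. Ccr2, the receptor of recruited monocytes, fell from 422, 445, 245 and 209 normalized counts in WT to 56, 18, 110, 76 and 103 (5.03-fold lower, adjusted p = 0.000672), and Plac8 fell from 29 to 76 to 1 to 28 (adjusted p = 0.0202; 0.0678 without WT A and 0.0568 without WT B). Of 12 monocyte and neutrophil markers tested, these were the 2 lower genes, while Fn1, Mpo and Camp were higher. In all, 41.7% passed, against 35.9% of all genes. Of 10 border macrophage markers 5 were higher and 0 lower, while 18.3% of all genes were higher and 17.7% lower. Cd163, Pf4, F13a1 and Clec10a of this list had log2 changes between -1.61 and -0.81 and did not pass. The 15 monocyte and neutrophil markers found in the table summed to 293.6 to 1428.3 in WT and 730.5 to 6921.5 in the control arm, where replicate 2 was highest. The part of these cells in the class II result was not tested.

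Cytokine and NF-kB genes rose at 18 of 28 and fell at 4 (78.6% against 35.9% of all genes), with a median log2 change of 1.15. Il1b, the secreted interleukin, held 472, 533, 510 and 594 normalized counts in WT and 1817, 2952, 1733, 1795 and 2893 in the control arm (4.13-fold, adjusted p = 2.02e-07). Tnfaip2 rose 3.87-fold and the chemokine Cxcl16 2.71-fold. Ptgs2, the inducible cyclooxygenase, was at 0 to 2 in WT and at 36, 139, 13, 15 and 20 in the control arm (adjusted p = 0.00211, and 0.0885 without replicates 1, 2 and 5). The 4 genes that fell were Nfkb1, the precursor of the p50 subunit (1.93-fold lower), Il1a (1.37-fold), the inflammasome sensor Nlrp3 (1.57-fold) and Il27 (1.77-fold), so the 2 genes of interleukin 1 moved in opposite directions. Of these, Nlrp3 did not pass without any 1 of WT B, C or D or control-arm 2, 3 or 4 (adjusted p 0.053 to 0.0814 over the alternatives that lost it). Il27 did not pass without any 1 of WT A, B or D, untreated A or B, or control-arm 1, 2, 4 or 5 (0.0502 to 0.298). The count of lower genes was 2 without WT B, WT D or control-arm 2, and 1 in the fit of all 41 libraries.

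Among 17 genes of complement and Fc receptors 10 were higher and 3 lower (76.5% against 35.9% of all genes), with a median log2 change of 0.46. C3, the central component, held 139, 108, 133 and 36 normalized counts in WT and 1486, 2107, 1710, 1359 and 1072 in the control arm (16.2-fold, adjusted p = 4.15e-07), and C3ar1, the receptor of its fragment C3a, rose 2.37-fold. Itgam, also part of a receptor for C3 fragments, fell, as did the activating Fc receptor Fcgr1 (1.82-fold lower).

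Genes of energy metabolism rose by smaller amounts. Of 35 oxidative phosphorylation genes 27 were higher and 0 lower (77.1% against 35.9% of all genes), with a median log2 change of 0.46. In the fit of all 41 libraries 15 were higher. Cox4i1, of cytochrome oxidase, held 4509, 3334, 3161 and 3795 normalized counts in WT and 9754, 8779, 7371, 7186 and 7056 in the control arm (2.17-fold, adjusted p = 8.78e-06). Ndufa1 of complex I rose 2.28-fold and Atp5b of the ATP synthase 1.53-fold. Glycolysis genes rose at 11 of 19 and fell at 2 (68.4%), with a median log2 change of 0.53. Pkm, the pyruvate kinase, rose 2.38-fold, Gapdh 2.09-fold and Gpi1 1.64-fold. Hk1 and Hk3, which start glycolysis, were 1.22-fold and 1.98-fold lower. The Hk1 call was lost without any 1 of WT B, C or D or control-arm 2, 3 or 4 (adjusted p 0.0508 to 0.197 over the alternatives that lost it). The Hk3 call was lost without any 1 WT library, untreated A or control-arm 5 (0.0542 to 0.0815). The list held 0 to 1 lower genes without any 1 of these libraries other than control-arm 5.

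Chemokine receptor and migration genes changed in both directions, with 8 of 18 higher and 7 lower (83.3% against 35.9% of all genes). Their median log2 change was -0.07. S1pr1, a receptor for sphingosine 1-phosphate, rose from 597 to 957 normalized counts in WT to 6548 to 7382 (9.34-fold, adjusted p = 2.73e-10), and the integrin Itgax 4.84-fold. Cxcr4, the receptor of Cxcl12, held 17, 18, 11 and 13 in WT and 589, 306, 207, 192 and 191 in the control arm, highest in replicate 1. The chemokine receptor Ccr1 had the lowest log2 change of the list, -3.08. Matrix genes and their enzymes rose at 10 of 19 and fell at 3 (68.4%), with a median log2 change of 0.89. The inhibitor Timp2 rose 2.51-fold (adjusted p = 1.58e-09). The gelatinase Mmp2 fell 2.68-fold, the secreted glycoprotein Sparc 1.76-fold, and Mmp9 was at 71, 41, 79 and 18 in WT against 2, 0, 1, 1 and 0. Without control-arm replicates 1 and 2, 5 matrix genes were lower.

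Genes of division mostly stayed below the threshold. Of 35 genes of DNA replication and mitosis 5 were higher and 1 lower (17.1%, under the 35.9% of all genes), with a median log2 change of 0.19. Pcna, the replication clamp, held 819, 679, 664 and 630 normalized counts in WT and 1423, 1425, 1334, 1156 and 1060 in the control arm (1.83-fold, adjusted p = 4.24e-05). Rrm1, Mcm3, Mcm4 and Mcm6, of nucleotide supply and the replicative helicase, passed with adjusted p between 0.0242 and 0.0437. The cyclin Ccnd1 fell 2.22-fold. Mki67, Top2a and Cdk1, which mark cycling cells, did not pass (log2 changes -0.07, 0.12 and 0.51). The count of higher genes was sensitive to single libraries. It was 1 without WT D or control-arm 5, 2 without control-arm 2 or 3, 3 without WT A or WT C, 10 without control-arm 1, 9 without control-arm 1 and 5 and 3 without 1, 2 and 5.

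Immediate early and stress genes rose at 9 of 27 and fell at 1 (37.0%, near the 35.9% of all genes), with a median log2 change of 1.29. Atf3 held 687, 610, 610 and 794 normalized counts in WT and 1614, 1841, 1916, 1783 and 1359 in the control arm (2.52-fold, adjusted p = 8.81e-07), with replicate 3, where Fos was low, at the highest value. Gadd45b rose 5.95-fold and the phosphatase Dusp2 3.55-fold, both highest in replicates 1 and 2. Fos did not pass (log2 change 3.39 ± 1.63 SE, adjusted p = 0.141). Dusp6 fell 1.22-fold (adjusted p = 0.0301), a call lost without any 1 of WT A, B or D or control-arm 3, 4 or 5 (0.0565 to 0.265 over the alternatives that lost it), and DESeq2 on recovered reads gave 14 higher genes. Without control-arm replicates 1 and 2, 3 genes of the list were lower.

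**Figure D3:**
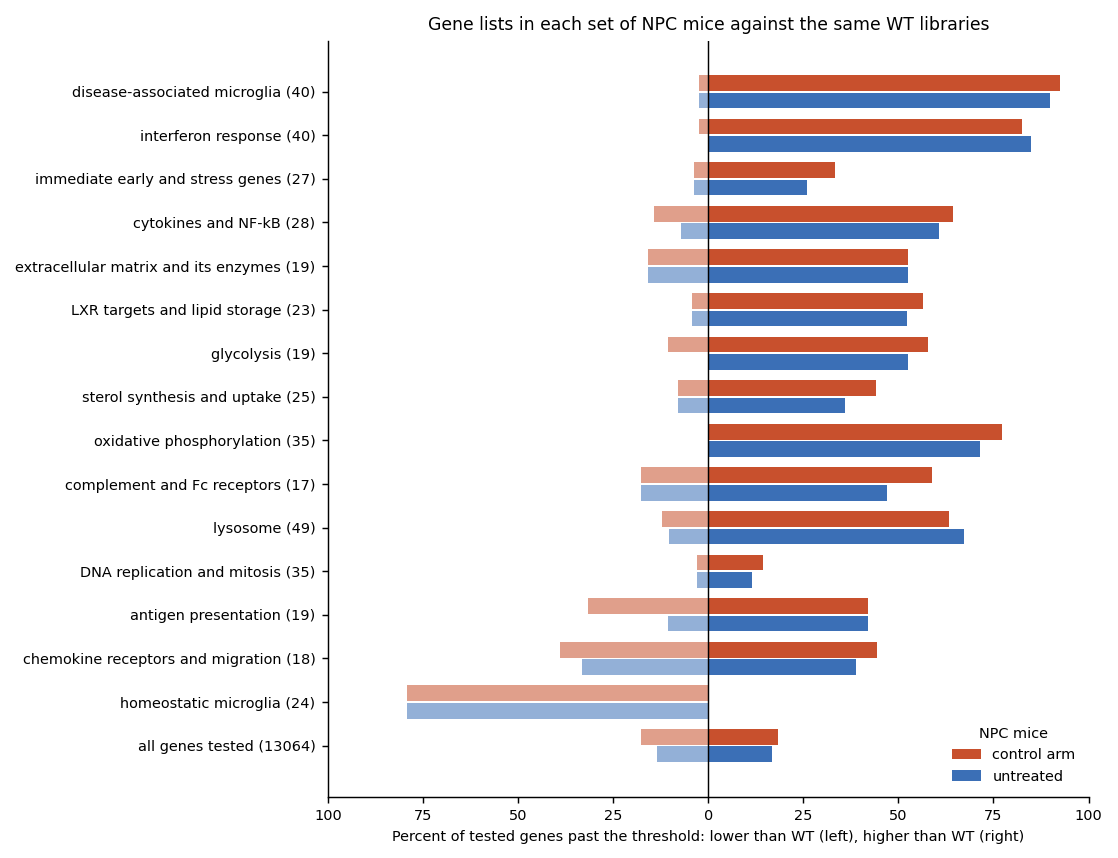
Percent of the tested genes of each list (number in brackets) past the threshold and lower (pale bars, left) or higher (full bars, right) than WT, in control-arm NPC (red) and untreated NPC (blue) mice, against the same 4 WT libraries. Homeostatic genes lie on the left and disease-associated and interferon genes on the right in both sets, and all genes tested give the background of 18.3% higher and 17.7% lower in the control arm.

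Markers of other cells were measured in the same sorted samples. The 12 astrocyte and Bergmann glia markers tested held 2 higher and 1 lower gene (25.0%, under the 35.9% of all genes). Gfap, the filament protein of reactive astrocytes, held 74, 63, 75 and 80 normalized counts in WT and 721, 1167, 665, 428 and 574 in the control arm (9.13-fold, adjusted p = 7.98e-07), while Gja1, the gap junction protein of astrocytes, fell from 65 to 132 to 16 to 57 (3.29-fold lower, adjusted p = 0.0024). The 13 astrocyte genes summed to 8865.9 to 9551.0 in WT and 9559.4 to 14067.4 in the control arm. Of 13 neuron markers 0 passed in either direction, and Pcp2 of Purkinje cells was at 0 in all 5 control-arm libraries. Of 9 oligodendrocyte markers 0 were higher and 1 was lower (11.1%). The myelin gene Mbp, at 2278 to 2716 in WT and 3132 to 6013, did not pass (adjusted p = 0.0655). The endothelial marker Pecam1, which microglia also express, fell 4.13-fold, while Kdr rose 2.04-fold and Flt1 from 2 to 13 to 13 to 68. The count of lower endothelial genes was 2 in place of 1 without control-arm replicate 2. In the neuron list 1 gene was higher without control-arm replicate 1, alone or with 2, 5 or both, and 1 lower without replicate 2. In the oligodendrocyte list 1 was higher without WT D, untreated A or control-arm 5, and 2 without untreated C, and without control-arm 1 and 5 it held 1 higher and 2 lower.

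Genes that mark macrophages at the borders of the brain rose at 5 of 10 and fell at 0. Of all genes 18.3% were higher and 17.7% lower. Siglec1 held 66, 116, 30 and 37 normalized counts in WT and 478, 632, 308, 619 and 245 in the control arm (7.76-fold, adjusted p = 2.81e-05). Mrc1 rose 2.49-fold, Ms4a7 11.2-fold and Cbr2 3.4-fold, and Stab1 1.34-fold, its call lost without WT C (adjusted p = 0.0519, and between 0.0519 and 0.3 over the alternatives that lost it). Others of the list, Cd163, Pf4, F13a1 and Clec10a, had log2 changes between -1.61 and -0.81 and did not pass. The summed list was at 15181.0 to 20747.1 in WT and 19750.5 to 30059.8 in the control arm. Of the monocyte and neutrophil markers 3 rose: Fn1 (9.83-fold), Mpo (0 to 1 in WT, 4 to 54 in the control arm) and Camp (3 to 35 against 19 to 603, adjusted p = 0.0422). Camp did not pass without WT A, C or D, untreated A or C, or control-arm 1, 2 or 4 (0.05 to 0.16 over the alternatives that lost it). S100a8 of neutrophils was at 5 to 98 in WT and at 137, 677, 51, 295 and 22 and did not pass. Without control-arm replicate 4, or without 1, 2 and 5, 1 gene of this list was higher, and without WT A, WT B or control-arm 1 and 5, 1 was lower in place of 2. Of 4 lymphocyte genes tested 1 passed (25.0%, under the 35.9% of all genes), the T cell gene Cd2, which rose (0 to 4 against 4 to 38). The summed lymphocyte list was at 512.7 to 751.4 in WT and 494.1 to 811.0 in the control arm. Of 3 red cell genes tested 1 passed (33.3%), Slc4a1, which fell (1 to 42 against 0 to 1), and the 6 globin genes of that list were at 0 in every library. The count of lower red cell genes was 0 without WT A, WT C, untreated C or control-arm 1 with either 2 or 5, and 2 without WT D or control-arm 2.

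A choroid plexus list was added after the values were seen. Its 14 genes summed to 4503.5, 5131.9, 5336.8 and 7050.4 normalized counts in WT, to 67608.5, 22862.5, 4348.5, 1233.7 and 2762.0 in control-arm replicates 1 to 5, and to 65564.8, 36943.0 and 42405.3 in untreated A to C. Control-arm replicate 1 thus lay above every untreated library and replicate 2 between WT and untreated, and these 2 also hold the most Fos. The other 3 lay below every WT library. Without control-arm replicate 1, or 1 and 5, 1 of the 14 genes was lower than WT, without 1 and 2, 5 were, and without 1, 2 and 5, 4 were. The libraries left out include those with the highest sums, so these counts are no test of the list. Of the 14 genes 1 was higher in the control arm against WT (7.14% past, against 35.9% of all genes). In untreated NPC against WT 5 were higher (35.7% past, against 30.0% of all genes).

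The second set of NPC mice was read the same way. In untreated NPC against the same WT libraries 3923 genes passed (30.0%), 2174 higher (16.6%) and 1749 lower (13.4%), and 1798 and 2289 with libraries rescaled to the same total. This count was 2560 without untreated replicate A and 2434 in the fit of all 41 libraries. Both sets shared 3320 genes past the threshold in the same direction, 25.4% of all genes, with 1826 higher (14.0%) and 1494 lower (11.4%), and 0 genes passed in opposite directions. These 3320 are 70.7% of the control-arm calls and 84.6% of the untreated calls. Since both comparisons share their 4 WT libraries, a WT library that is high or low for a gene moves both in the same direction, and the count is no independent repeat. For 2777 of these genes neither NPC set overlapped WT. The repeating count was 3300 without control-arm replicates 1 and 5, 3634 without 1 and 2 and 3081 without all of them, and 2014 in the fit of all 41 libraries.

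Repeating genes were named by their p-values, as those for which the larger of both sets' adjusted p was smallest. Apoe was at 1767173, 1255704 and 1559075 normalized counts in untreated A to C, 7.9-fold above WT beside 7.97-fold in the control arm. Lox was at 1699, 2348 and 1587 (36.6-fold beside 45.9-fold), and Csf1 at 3388, 3631 and 2508 (6.12-fold beside 6.8-fold). Fam20c, a secretory pathway kinase, rose 6.86-fold in untreated and 7.87-fold in control-arm mice. Lyz2 rose 6.26-fold beside 6.2-fold, Cd63 4.64-fold beside 4.98-fold and the annexin Anxa5, which binds phosphatidylserine, 8.61-fold beside 8.16-fold. Uap1l1, of the family of UDP-sugar pyrophosphorylases, rose 4.23-fold beside 3.9-fold. Tmem176b, a membrane protein of myeloid cells, was the 1 fall among the 10, from 17261 to 21995 in WT to 2843 to 3820 in untreated and 2759 to 3735 in control-arm libraries. That larger p was at most 1.82e-09 for these genes, and the libraries of the 2 NPC sets overlapped in each.

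Each list was counted the same way in the second set, where 16.6% of all genes were higher and 13.4% lower and where 84.6% of all calls repeated. In untreated NPC mice 19 of 24 homeostatic genes were lower and 0 higher (median log2 change -0.58 beside -0.75), with 17 lower in both sets. Disease-associated genes were higher at 36 of 40 and lower at 1 (1.68 beside 1.81), and all 36 repeated. Interferon genes were higher at 34 and lower at 0 of 40 (1.70 beside 1.59), with 33 repeating. Lysosomal genes were higher at 33 and lower at 5 of 49, with 31 and 4 repeating, and oxidative phosphorylation genes were higher at 25 of 35, with 23 repeating. Sterol genes were higher at 9 of 25, all repeating, LXR and lipid storage genes at 12 of 23, all repeating, and cytokine genes at 17 of 28, all repeating. Matrix genes were higher at 10 of 19 with 9 repeating, and chemokine receptor genes higher at 7 and lower at 6 of 18, all repeating.

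The direct test between control-arm and untreated NPC mice passed 0 of 13064 genes (0.0%) with limma, where the smallest adjusted p was 0.533. At an unadjusted p below 0.05 there were 884 genes, with 653.2 equal to 0.05 of those tested. edgeR on recovered reads passed 0 and DESeq2 12, 1 higher and 11 lower in the control arm. Without control-arm replicate 1, 31 genes passed, 30 of them lower in the control arm, and these 31 held 1 choroid plexus gene and 1 astrocyte marker. Without control-arm replicates 1 and 2, 121 of 12826 genes passed, 119 of them lower in the control arm. They included 12 of the 14 choroid plexus genes, 4 astrocyte markers and 0 genes of the homeostatic, disease-associated, lysosome, interferon and antigen presentation lists. Replicates 1 and 2 held the highest choroid plexus sums of the control arm, and that list was made after the values were seen. Leaving them out lowers the control-arm values of that list, so its count is no test of it. Of these 121 genes 7 had passed against WT in both sets of NPC mice. Those with the smallest adjusted p were Clu, an astrocyte and choroid plexus gene (log2 difference -3.43, adjusted p = 0.000112), and Igfbp2 (-4.37, adjusted p = 0.000245).

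A p that misses the threshold does not show that the sets were alike, so the interval of each difference is given. The 95% interval of the log2 difference lay within 1 in either direction for 9512 genes (72.8%), and for 2889 of the 3320 repeating genes (87.0%). Repeating genes were picked for passing in the same direction in both sets in this fit, which favours a small spread and similar means. For this reason neither their share here nor their share by unadjusted p below is a test of likeness. The median half-width was 0.386. For Apoe the difference was 0.01 (-0.23 to 0.25), for Lamp1 0.06 (-0.10 to 0.21), for Ctsb -0.02 (-0.24 to 0.21), for Tmem119 -0.15 (-0.43 to 0.13) and for Selplg -0.15 (-0.39 to 0.08). For Npc1 it was 0.02 (-0.39 to 0.43). Interferon genes had wider intervals, such as -0.66 to 0.48 for Ifit2 and -0.71 to 0.54 for Cxcl10. Of the 98 named genes that repeat, 11 had an interval that excludes 0, with 8 lower and 3 higher in the control arm. The difference was -2.95 (-4.57 to -1.32) for Galnt16, -2.36 (-3.71 to -1.01) for Slc2a10, -0.93 (-1.60 to -0.26) for Gfap and -0.43 (-0.81 to -0.05) for Serpinf1, and 1.74 (0.26 to 3.22) for Cxcl2. Of all repeating genes 145 (4.37%) had an unadjusted p below 0.05 between the sets, and 0 passed after adjustment.

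In the control arm alone 1376 genes passed, with a median absolute log2 change of 0.546 there and 0.357 in untreated mice, and 611 of them had an unadjusted p below 0.05 in untreated mice. In untreated mice alone 603 passed. The interval between the sets lay within 1 log2 unit for 1036 of the 1376 (75.3%). Passing in 1 set and not in the other is not a difference between the sets, and 0 of these genes passed the direct test.

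Class II genes are described as an example, picked after the values were seen. In untreated A to C, H2-Aa held 1324, 410 and 488 normalized counts and H2-Eb1 694, 223 and 255, values that overlap WT and lie above all 5 control-arm libraries for both genes. The control arm lay lower than untreated by 1.85 log2 units for H2-Aa (interval -3.22 to -0.48) and by 1.82 for H2-Eb1 (-2.99 to -0.64), with limma's unadjusted p-values of 0.0125 and 0.00519. Ciita, at 15 to 28 in WT, was at 11, 6 and 4 in untreated and 3, 2, 2, 1 and 0 in the control arm. H2-DMb1 did not pass in untreated mice (adjusted p = 0.0557). H2-DMa fell alike in both sets (2.08-fold in untreated, 2.02-fold in the control arm). Ccr2 was at 160, 158 and 140 in untreated libraries, between WT and the control arm, and did not pass there (adjusted p = 0.129).

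Markers of glia and choroid plexus, like H2-Aa and H2-Eb1, were mostly higher in the untreated set. The median log2 difference, control arm minus untreated, was -1.21 for 12 astrocyte, -0.88 for 9 oligodendrocyte and -2.87 for 14 choroid plexus genes. Control-arm replicate 1 was an exception for the choroid plexus sum, at 67608.5 against 65564.8 in untreated A. Of 12 astrocyte markers 7 were higher and 0 lower in untreated NPC against WT (58.3% against 30.0% of all genes). In control-arm NPC 2 were higher and 1 lower (25.0% against 35.9% of all genes). Gfap was at 2280, 1157 and 801 in untreated libraries (17.4-fold above WT beside 9.13-fold), and Mbp at 12516, 7284 and 3928 (2.8-fold, adjusted p = 0.00376), highest in replicate A. Sparcl1, a secreted astrocyte protein, was at 1017, 900 and 480 in untreated mice and at 338, 406, 238, 331 and 223 in the control arm, where WT held 231 to 341. The choroid plexus transporter Slc4a5 was at 219, 152 and 187 in untreated, 101, 1, 10, 0 and 11 in the control arm and 15 to 29 in WT, and the leptin receptor Lepr at 17, 45 and 35, 0 to 2 and 0 to 4. Kcnj2, a potassium channel of microglia, went the opposite way, at 1084, 1467 and 1083 in untreated and 1717 to 2291 in the control arm, with 1471 to 2610 in WT. Limma's unadjusted p between the sets was 8.19e-05 for Sparcl1, 0.000151 for Kcnj2, 0.000285 for Lepr and 0.000707 for Slc4a5, and 0 genes passed after adjustment.

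**Figure D4:**
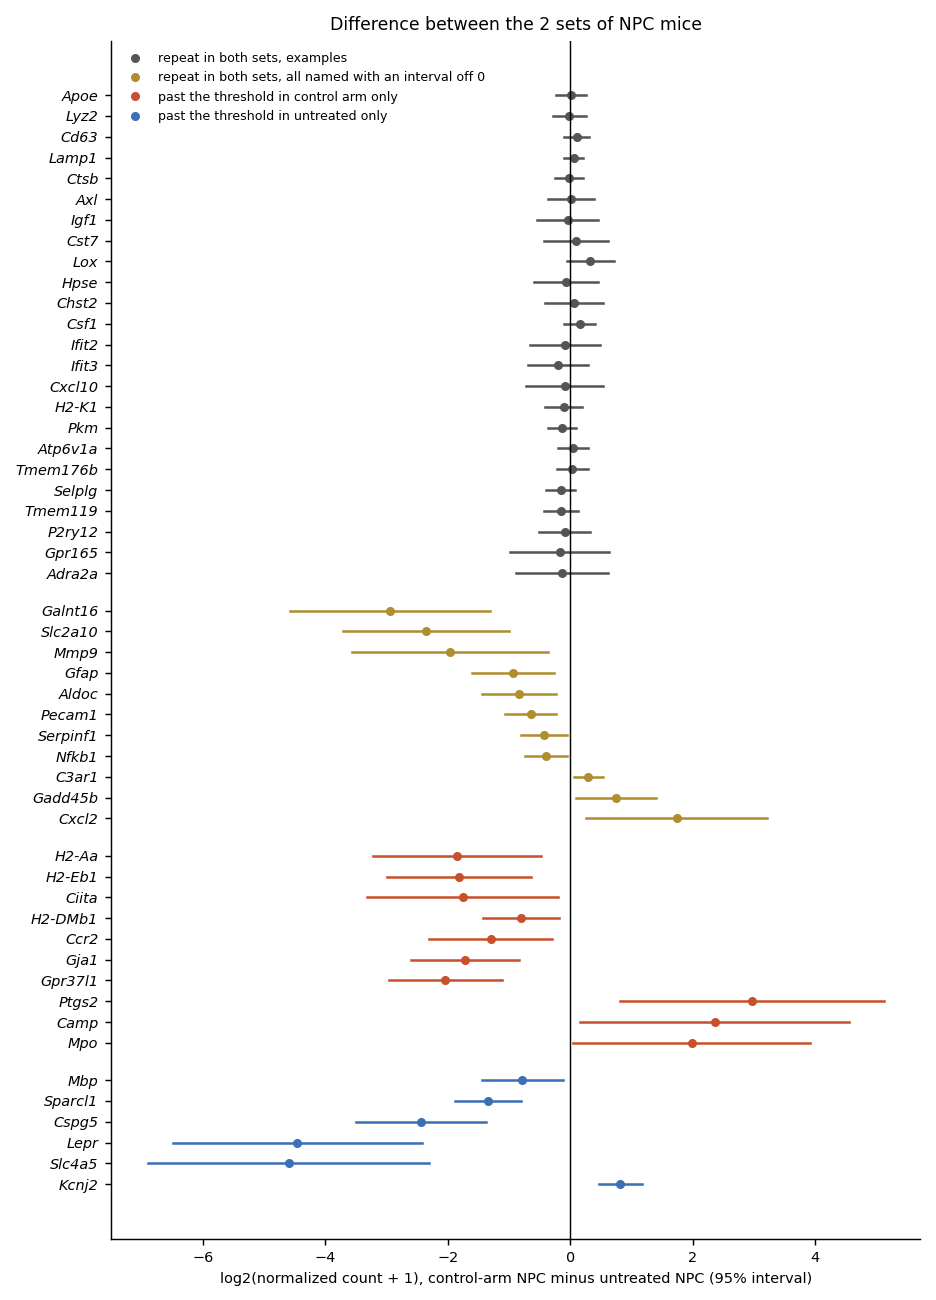
Difference in mean log2(normalized count + 1), control-arm minus untreated NPC, with its 95% interval (not adjusted for the number of genes), for genes that passed against WT in both sets (24 examples, then all 11 of the 98 named ones with an interval that excludes 0), 10 that passed in the control arm only and 6 that passed in untreated mice only. The 24 examples straddle 0, as for Apoe (-0.23 to 0.25), and the 11 run from Galnt16 (-2.95) to Cxcl2 (1.74). All were picked with their values known, and 0 genes passed the adjusted test.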

How the data were processed

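The values are the authors' deposited normalized counts, a signal per gene that their file gives for 24015 genes in 41 libraries, with 0 unused columns of per-sample values. FastQC 0.11.4, STAR 2.5.1b, DESeq2 and build mm9 are named in the submitters' processing notes. The annotation and the counter are not given in the sources used here. In each library all values (100%, tolerance 1e-06) were whole multiples of 1 step, so reads were recovered for alternatives.

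Genes with at least 10 normalized counts in 3 of 12 libraries were kept. Log2(normalized count + 1) of WT, untreated NPC and control-arm NPC libraries was fitted together with limma 3.58.1 (R 4.3.3, trend and robust options), and p-values were Benjamini-Hochberg adjusted over 13064 genes. The steps were also run on simulated reads drawn around WT means, with known folds set in some control-arm genes. These reads did not imitate the sex, Fos and choroid plexus patterns of the libraries, so the run is no test of their part. Other filters, pseudocounts, scalings, edgeR 4.0.16, DESeq2 1.42.0, other sample sets and each library left out were tried. Leaving out control-arm replicates 1 and 5, 1 and 2, or all 3 was chosen after seeing the data.

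The comparison and the gene lists were chosen with earlier results of these data known. Named genes were the 10 largest rises and falls with no overlap and a mean of at least 100, the 3 list members with the smallest p, the 10 repeating genes, and a set for checks. Other genes named, among them the members that fell in lists that mostly rose, class II genes, Igf1, Axl, Cst7, Atp6v1a and those past the threshold in 1 set only, were chosen after their values were seen. Promoter sequences are RefSeq's, of build GRCm38.p6, not the build of the counts, and were matched by symbol. Depth limits precision for genes near 0. Some genes of the lists are counted but not reported here by name.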

Additional observations from a re-analysis of the deposited data

Results flagged for a closer look

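In each group of 4 or 5 libraries the highest and lowest values of the named genes were compared with the rest by Dixon's ratio, and 20 of 272 groups held a library that stood apart, where chance flags about 1 in 20 (13.6). Control-arm replicate 1 was that library in 8. It was high for Plet1 (3310.61 normalized counts), Fn1 (828.539), Cxcr4 (589.026), Dusp2 (268.787), Hk1 (1523.13) and Slc4a5 (101.128), and low for Itgam (24686.7) and Igf1 (705.234). Control-arm replicate 2 was high for Ptgs2 (138.936), replicate 3 for Mpo (54.068) and Slc4a1 (0.88636), and replicate 5 for Mrc1 (789.155). Among WT libraries, A was high for B2m (30002.4), Cd63 (9066.35), Plet1os (17.3802) and Mpo (1.02237), C was high for Cx3cr1 (182105), and D was low for C3ar1 (8545.08), Rrm1 (997.038) and Csf1 (480.954).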

How the results depend on the processing

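Control-arm NPC against WT gave 3949 to 4637 genes with 1 library left out (4696 with all), and its count stayed within 1.5 times under every alternative tried. Untreated NPC against WT gave 2560 to 4499, with 2560 without untreated replicate A and 2434 in the fit of all 41 libraries, where the repeating count was 2014 (2414 to 3602 with 1 library left out). The count between the 2 NPC sets, 0 with all libraries, was 0 to 31 with 1 left out (31 without control-arm replicate 1), 18 with any value above 0 kept, 12 with DESeq2, 2 without limma's trend and robust options and 29 with array weights. It was 1 without control-arm replicates 1 and 5, 121 without 1 and 2 and 88 without all 3. The cause was not tested. With the replicate letter as a replicate block, untreated NPC against WT gave 4209 genes. Correlations between WT and untreated libraries of the same letter, with group means taken off, were 0.105, 0.116 and -0.0534 for A, B and C. Untreated A and B matched the WT library of their own letter best, and untreated C matched WT D. Correlations this weak do not settle whether the letters mark pairs, and control-arm libraries carry numbers, not letters. No named gene that passed against WT, with all libraries or under an alternative, reversed its direction in either set. Among those past the threshold in neither, 4 genes turned in the control arm and 7 in untreated mice. Without control-arm replicates 1 and 5 Xist turned from 1.90 to -0.465 and Uty to 0.057. In the fit of all 41 libraries the lists also held 2 higher genes of division, 1 astrocyte and 1 endothelial marker (5, 2 and 2 with 12 libraries), and 0 lower oligodendrocyte and immediate early genes (1 of each). Depth limits genes near 0, and the mice's sex pattern and the arm cannot be told apart from other differences between these libraries.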
